A study of Mus musculus with 41 samples.

Results

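The genes described here are 10 components of the transforming growth factor β (TGFβ) pathway in mouse microglia, the resident macrophages of the brain: the ligand Tgfb1, the receptors Tgfbr1 and Tgfbr2, the ligand carrier Lrrc32, the signal transducers Smad2, Smad3 and Smad4, the feedback inhibitors Smad7, Skil and Pmepa1. They were chosen by symbol, and all 10 were found among the 24537 gene symbols of the read count table. RNA was measured in 5 libraries of microglia sorted from brain and lysed at once (ex vivo), 2 libraries after 6 h in culture, 3 after 24 h (the labels give 22 h for replicate 2), 5 after 7 d, 2 after 7 d with TGFβ in the medium, and 4 libraries of whole brain lysate. All mice were C57Bl6. Every culture, including those given TGFβ, was kept in DMEM/F12 with 5% fetal bovine serum and interleukin-34, a ligand of the CSF1 receptor that microglia need to survive, added daily without medium changes; the labels state neither the dose nor the schedule of TGFβ. Chromatin was mapped in 2 libraries each of ex vivo and 7 d microglia by ATAC-seq, which marks accessible DNA (the labels give 8 d for replicate 2), and by ChIP-seq for H3K27ac, a mark of active promoters and enhancers, and in 2 ex vivo libraries each for H3K4me2 and for PU.1, a lineage factor of macrophages. The labels do not say whether replicate libraries came from different mice; every p-value below is therefore set by library-to-library spread, which may be technical.

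TGFβ1 is secreted in a latent complex that is held by a carrier protein, such as the product of Lrrc32 (GARP) on regulatory T cells, platelets and endothelium, or of Nrros (LRRC33) on macrophages and microglia. The freed ligand binds the type II receptor Tgfbr2, which phosphorylates the type I receptor Tgfbr1, and this kinase phosphorylates Smad2 and Smad3, which enter the nucleus with Smad4 and regulate transcription. Smad7 blocks the receptor, Skil (SnoN) represses Smad complexes and Pmepa1 sequesters the receptor-regulated Smads, and all of these inhibitors are themselves induced by the pathway in many cells. In the brain, TGFβ signalling is known to be needed for the gene expression that sets microglia apart from other macrophages.

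The RNA libraries held 11584561 to 28841472 counts. Levels below are normalised read counts (CPM), scaled by the trimmed mean of M-values (TMM), and a gene is called where its adjusted p was under 0.05. At 6 h the scaling factors were 0.784 and 0.814, against 0.916 to 1.13 in the other 15 microglial libraries, and the median gene changed by −0.17 on the log2 scale, so 6 h values are relative to that shift. On the authors' TPM (transcript level per length and library), the 6 h median was −0.36, with 3089 genes higher and 5732 lower, against 4312 and 5099 on the TMM scale. The summed level of 8 microglial markers was 36200 to 43300 CPM ex vivo, 5220 to 5310 at 6 h, 5560 to 6300 at 24 h, 11500 to 14600 at 7 d and 19900 to 22100 with TGFβ. Neuronal markers summed to at most 17.7 CPM and astrocyte markers to at most 168 CPM in any microglial library, against at least 6760 and 4380 CPM in lysate. Oligodendrocyte markers summed to 88.1 to 222 CPM ex vivo and 24.8 to 71.6 CPM in culture, against at least 4320 CPM in lysate. Neutrophil markers summed to 5.10 to 238 CPM ex vivo, the highest in replicates 2 and 3 (238 and 214 CPM), and to at most 12.3 CPM in any cultured library. Oligodendrocyte precursor markers summed to 1.50 to 3.97 CPM ex vivo, 73.2 to 80.7 at 6 h, 7.36 to 10.2 at 24 h, 0.91 to 20.2 at 7 d and 124 to 351 with TGFβ; Cspg4, which pericytes also carry, made up 99.1% of the sum at 6 h and 99.7% with TGFβ, where Pdgfra and Olig1 were at 0 counts. The part of these cell types in the results below was not tested. In these bulk libraries, fewer cells of a type and less RNA per cell cannot be told apart.

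Promoter sequence was available only for Tgfb1, Tgfbr1, Tgfbr2 and Smad3, so only their start sites are shown. Lrrc32, Smad2, Smad4, Smad7, Skil and Pmepa1 were not searched for motifs. The 250 bases before 4 of the 5 starts shown overlapped accessible chromatin. Those before the other, an inner start of Tgfbr1, overlapped no interval of any list. Each line gives the 250 bases before an annotated start, 5′ to 3′ on the gene's strand (RefSeq, GRCm38.p6, the same assembly as mm10). Capitals mark GGGCGG (the GC box, bound by Sp1-family factors) or CAGACA (which holds the core of a Smad-binding element) on either strand.
Tgfb1 (chr7:25686752-25687001, plus strand): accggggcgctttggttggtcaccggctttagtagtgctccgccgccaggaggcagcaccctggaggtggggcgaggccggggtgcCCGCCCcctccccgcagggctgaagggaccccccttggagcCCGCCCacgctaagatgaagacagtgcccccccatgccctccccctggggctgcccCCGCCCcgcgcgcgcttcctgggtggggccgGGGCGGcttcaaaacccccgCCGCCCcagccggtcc
Tgfbr1, outer start (chr4:47352972-47353221, plus strand): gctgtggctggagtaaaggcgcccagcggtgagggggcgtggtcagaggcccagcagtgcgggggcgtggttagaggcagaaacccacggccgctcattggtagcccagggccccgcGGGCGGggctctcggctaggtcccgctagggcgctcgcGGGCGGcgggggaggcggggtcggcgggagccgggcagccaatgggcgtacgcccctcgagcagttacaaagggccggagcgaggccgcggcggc
Tgfbr1, inner start (chr4:47385966-47386215, plus strand): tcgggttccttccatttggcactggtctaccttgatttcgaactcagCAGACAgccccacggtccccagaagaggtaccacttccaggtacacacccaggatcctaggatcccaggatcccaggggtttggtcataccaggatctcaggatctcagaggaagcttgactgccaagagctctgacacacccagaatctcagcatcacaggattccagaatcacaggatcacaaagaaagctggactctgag
Tgfbr2 (chr9:116175364-116175613, minus strand): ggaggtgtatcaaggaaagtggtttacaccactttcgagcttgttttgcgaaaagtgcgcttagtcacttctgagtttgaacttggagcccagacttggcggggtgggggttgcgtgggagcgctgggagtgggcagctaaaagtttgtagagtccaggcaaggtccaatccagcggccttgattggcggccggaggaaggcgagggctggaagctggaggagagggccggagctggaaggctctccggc
Smad3 (chr9:63757995-63758244, minus strand): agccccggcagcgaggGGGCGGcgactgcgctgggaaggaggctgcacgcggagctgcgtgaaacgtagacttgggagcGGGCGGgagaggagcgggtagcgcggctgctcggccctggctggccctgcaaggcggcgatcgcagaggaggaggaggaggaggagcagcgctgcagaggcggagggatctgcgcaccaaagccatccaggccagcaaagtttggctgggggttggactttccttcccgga
The GC box occurred 5 times before the start of Tgfb1, the nearest 16 bases before it, and 2 times each before the outer start of Tgfbr1 and the start of Smad3. It was found in 32.7% of 32817 annotated mouse promoters of this length. CAGACA was found only before the inner start of Tgfbr1 among the 5, 203 bases upstream, and in 17.1% of all promoters. The PU.1 core GAGGAAGT (2.44% of all promoters) and the AP-1 motif TGANTCA (6.75%), searched on both strands, had no match in these 5 windows. No motif overlapped another.

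Sorted microglia carried far more RNA of the ligand and both receptors than whole brain lysate did. In this comparison, scaled on its own 9 libraries, 9 of the 10 genes were higher in ex vivo microglia and Lrrc32 was lower, where 82.7% of 15335 genes tested were called in either direction (39.1% higher and 43.5% lower; 77.3% of genes had libraries that did not overlap). With DESeq2 the median of all genes moved from −0.10 to −0.38 in this comparison, and the 9 and 1 genes kept their directions. Tgfb1 was at 595, 502, 579, 575 and 712 CPM in the ex vivo libraries and at 3.77, 4.18, 8.23 and 7.90 CPM in lysate. The groups lay far apart, with a log2 fold change of 6.64 ± 0.30 (SE, edgeR adjusted p = 1.16e-09). Tgfbr1 had the largest difference of the 9 higher genes, at 3231 ± 816 (SD, n = 5) against 26.0 ± 2.04 CPM (SD, n = 4), a log2 fold change of 6.96 ± 0.23 (edgeR adjusted p = 1.21e-10). Tgfbr2 followed with a log2 fold change of 5.94 ± 0.26 (edgeR adjusted p = 8.24e-10).

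The Smads were spread more evenly between microglia and the rest of the brain. Smad2 and Smad4 were higher in microglia by 1.20 ± 0.11 and 1.25 ± 0.14 on the log2 scale (edgeR adjusted p = 9.24e-07 and 2.96e-06), Smad3 by 1.84 ± 0.15 (2.04e-07) and Smad7 by 2.56 ± 0.22 (3.42e-07). Skil was 6.71-fold and Pmepa1 9.97-fold higher (edgeR adjusted p = 7.51e-09 and 3.39e-09). Of 13 other ligand, latency and activation genes tested, 5 were higher and 8 lower in microglia, where 82.7% of all genes were called. Among those that averaged at least 10 CPM in the higher group, the largest differences were in Tgfb3, another ligand, Ltbp4, a latent TGFβ-binding protein, and Itgb8, an integrin subunit that helps to free TGFβ from its latent complex. Tgfb3 was at 0.177 ± 0.155 against 15.7 ± 1.94 CPM, Ltbp4 at 0.303 ± 0.464 against 91.5 ± 23.6 CPM and Itgb8 at 0.221 ± 0.311 against 19.9 ± 3.01 CPM (edgeR adjusted p = 2.61e-08, 1.10e-07 and 8.99e-07). Ltbp1, a further latent TGFβ-binding protein that fell just short of that level and was singled out after its values were seen, was at 0.0776 ± 0.089 against 9.78 ± 2.88 CPM, a log2 fold change of −6.90 beside −6.37 for Tgfb3 and −6.28 for Itgb8 (edgeR adjusted p = 1e-07 for Ltbp1).

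Lrrc32 was close to absent in ex vivo microglia. The 5 libraries held 1, 0, 0, 0 and 4 counts of it, and the lysate libraries were at 5.86, 6.24, 6.19 and 7.20 CPM. All lysate libraries exceeded all ex vivo libraries, and the depth-scaled ratio of summed counts was 127 in favour of lysate (95% Poisson interval 54.1 to 393, counting error only; edgeR adjusted p = 5.05e-07). Endothelial markers, from a cell type that carries Lrrc32, summed to 128 to 215 CPM over 7 genes in lysate and to 13.2 to 18.6 CPM in ex vivo microglia, where Cldn5 and Emcn were at 0 counts. Platelet markers summed to 293 to 404 CPM in lysate and 12.7 to 29.9 CPM ex vivo. A single gene made up most of each sum, Gp1bb in lysate (98.7%) and Gp9 ex vivo (92.9%). The part of endothelium and platelets in the lysate level was not tested.

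Compared per transcript length, in the TPM deposited by the authors, Tgfbr1 was the most abundant of the 10 in ex vivo microglia, at 939 ± 260 TPM (SD, n = 5). Tgfb1 (453 ± 50.8 TPM) and Tgfbr2 (406 ± 43.2 TPM) came next and overlapped each other. Pmepa1 followed at 248 ± 22.5 TPM, apart from its neighbours, then Skil, Smad3 and Smad7 at 136 ± 26.4, 105 ± 16.6 and 87.3 ± 17.2 TPM, with overlapping libraries between neighbours. Smad4 (43.5 ± 5.91 TPM) and Smad2 (16.4 ± 2.06 TPM) were lower and separate, so Smad3 exceeded Smad2 in every ex vivo library. At 7 d the order had changed, with Tgfb1 at 320 ± 21.8 and Tgfbr2 at 272 ± 36.3 TPM above Tgfbr1 at 124 ± 47.5 TPM.

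**Figure D1:**
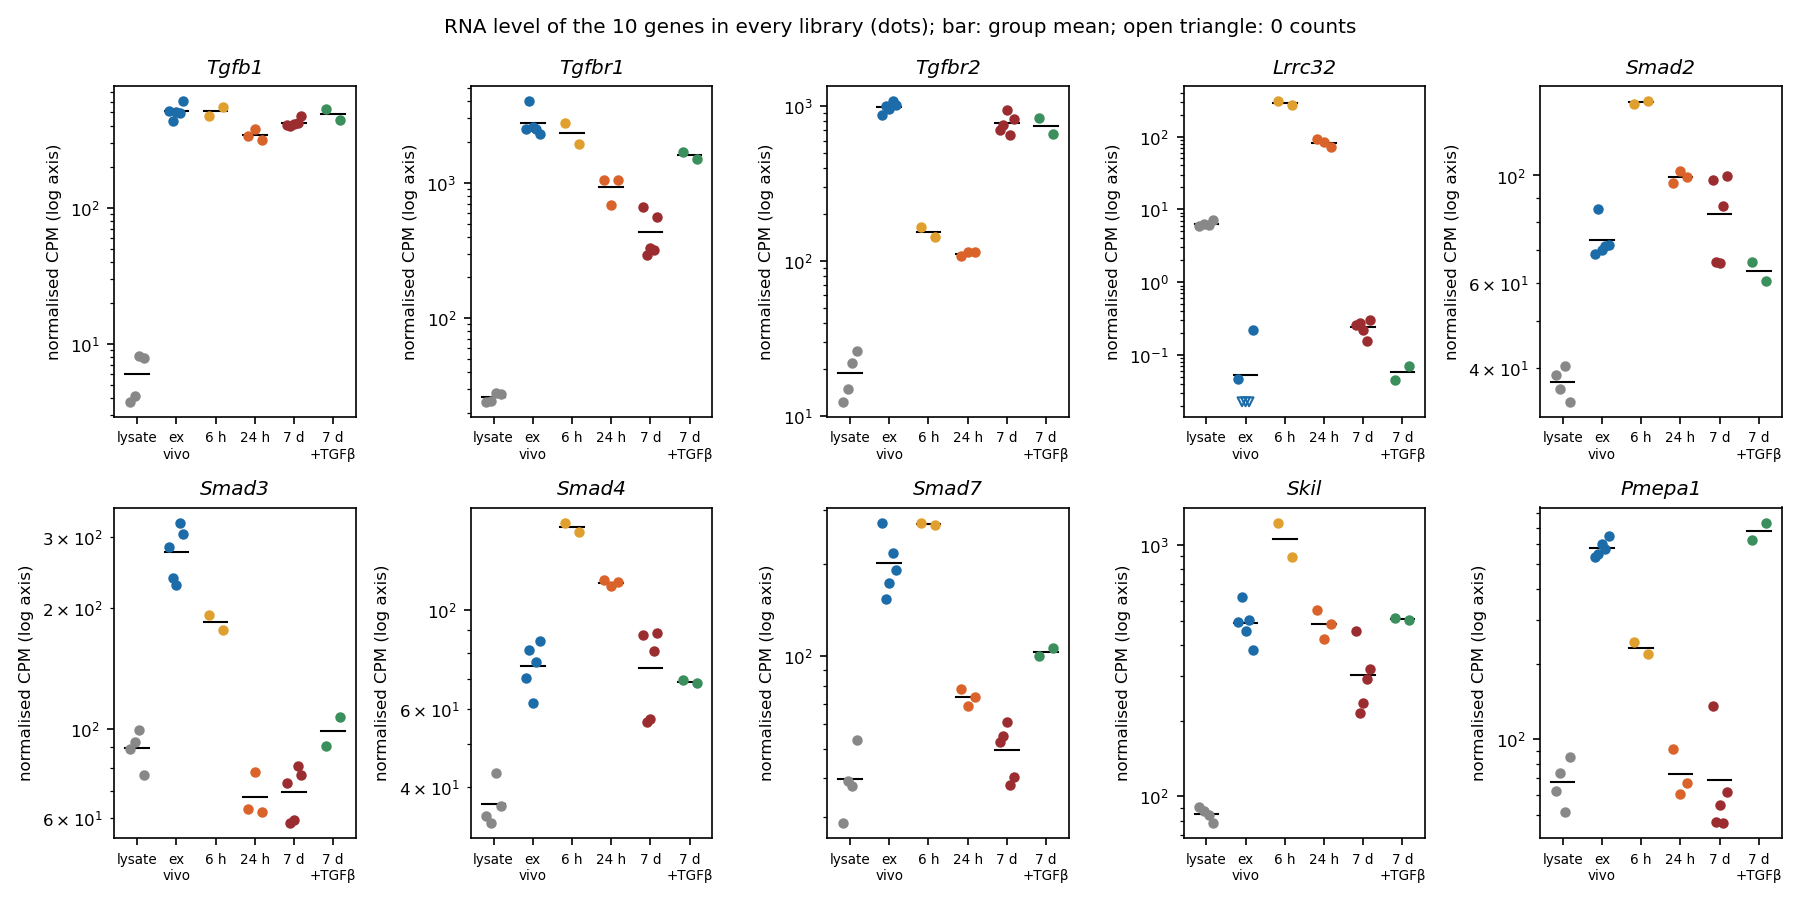
RNA level of each of the 10 genes in all 21 RNA libraries, in normalised CPM on a log axis (the axis range differs between panels). Each dot is a library, each bar a group mean, and open triangles mark libraries with 0 counts; Lrrc32 is at 271 and 307 CPM at 6 h and under 0.3 CPM ex vivo and at 7 d, while Tgfbr2 is at 144 and 166 CPM at 6 h and at least 656 CPM ex vivo and at 7 d.

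The ligand changed little in culture apart from a fall at 24 h. Its result against ex vivo depended on the scaling at 6 h and at 7 d with TGFβ. Tgfb1 was at 514, 432, 501, 493 and 605 CPM ex vivo, at 467 and 551 CPM after 6 h, at 333, 380 and 312 CPM after 24 h, at 404, 396, 411, 417 and 471 CPM after 7 d, and at 528 and 437 CPM after 7 d with TGFβ. The 24 h libraries were the lowest and lay below every ex vivo library. The 24 h fall was 0.57 ± 0.13 on the log2 scale (a log2 fold change of −0.57, edgeR adjusted p = 0.00103). At 6 h the log2 fold change was 0.00 ± 0.15 (edgeR adjusted p = 1), but on the authors' TPM Tgfb1 was lower, by −0.38 with a pseudocount of 1 (limma adjusted p = 0.0158). The 7 d value of −0.28 ± 0.11 (edgeR adjusted p = 0.0331) had overlapping libraries, and its adjusted p rose to between 0.0562 and 0.0886 without ex vivo replicate 5 or without 7 d replicate 1, 2, 3 or 4. With TGFβ the level did not pass the test against ex vivo (−0.08 ± 0.15, edgeR adjusted p = 0.668) or against 7 d (0.20 ± 0.14, 0.393). On the authors' TPM with a pseudocount of 1, Tgfb1 with TGFβ was called lower than ex vivo, at −0.44 (limma adjusted p = 0.00858).

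Lrrc32 rose early in culture and was back near its ex vivo level by 7 d. From 1, 0, 0, 0 and 4 counts ex vivo it reached 307 and 271 CPM after 6 h, was at 92.2, 83.7 and 71.6 CPM after 24 h, and was back to between 0.158 and 0.299 CPM (4 to 8 counts) in the 5 libraries of 7 d. Every 6 h and 24 h library was far above every library of the other microglial groups. The ratio to ex vivo was 4130 at 6 h (95% Poisson interval 1770 to 12700, counting error only; edgeR adjusted p = 7.84e-14) and 1590 at 24 h (683 to 4910; 2.42e-13). Per length it stood at 112 ± 8.58 TPM at 6 h (SD, n = 2), above Smad7, Pmepa1, Smad4, Smad3, Tgfbr2 and Smad2 in both libraries. From 24 h to 7 d it fell by a ratio of 365 (258 to 533; edgeR adjusted p = 2.69e-12).

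At 7 d each library held only a few counts of Lrrc32. The 32 counts of the 7 d libraries against 5 ex vivo gave a ratio of 4.37 (1.69 to 14.4; edgeR adjusted p = 0.00366), with overlapping libraries and no call on TPM with a pseudocount of 1 (limma adjusted p = 0.345). With TGFβ the 2 libraries held 1 and 2 counts, a lower level than in any 7 d library, and the difference from 7 d did not pass the test (edgeR adjusted p = 0.0743). Beside the rise at 6 h, endothelial markers summed to 6.20 to 8.88 CPM with Ly6c1 and Emcn at 0, and platelet markers to 4.41 and 6.03 CPM, both below their ex vivo sums. Markers of lymphocytes, whose regulatory T cells carry Lrrc32, summed to 13.2 to 15.9 CPM over 7 genes at 6 h and 19.0 to 23.8 CPM ex vivo, with 99.3% and 98.7% of the sum from Foxp3, the transcription factor that defines regulatory T cells. The same sum was 16.5 to 20.4 CPM at 24 h, 17.9 to 22.5 at 7 d and 22.2 to 22.5 with TGFβ. Foxp3 made up 99.2%, 99.9% and 99.3% of it there. Cd3e, Cd3d, Ms4a1 and Nkg7 were at 0 counts at 6 h, and the part of these cells in the rise was not tested. Nrros, the myeloid carrier of latent TGFβ, was at 332 to 395 CPM at 6 h and 285 to 377 CPM ex vivo, with overlapping libraries (edgeR adjusted p = 0.471).

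The receptors followed different courses. Tgfbr2, the ligand-binding receptor, dropped within 6 h and came back by 7 d. It was at 881, 1008, 962, 1081 and 1026 CPM ex vivo, at 166 and 144 CPM after 6 h, at 107, 114 and 114 CPM after 24 h, and at 699, 752, 953, 656 and 827 CPM after 7 d. All 5 libraries of 6 h and 24 h lay below all others, and those of ex vivo and 7 d overlapped. The log2 fold change against ex vivo was −2.68 ± 0.18 at 6 h, −3.15 ± 0.16 at 24 h and −0.35 ± 0.12 at 7 d (edgeR adjusted p = 1.36e-09, 3.88e-11 and 0.013), and from 24 h to 7 d Tgfbr2 rose 6.95-fold (1.06e-09).

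Tgfbr1, the signalling kinase, declined step by step instead. It was at 2507, 4026, 2585, 2495 and 2280 CPM ex vivo, at 2759 and 1936 CPM after 6 h, at 1056, 683 and 1055 CPM after 24 h, and at 659, 292, 330, 321 and 558 CPM after 7 d. Of the 6 h libraries 1 lay within the ex vivo range and 1 below it, those of 24 h lay below both, and those of 7 d lay below 24 h. The 6 h change of −0.24 ± 0.32 did not pass the test (edgeR adjusted p = 0.506). At 24 h the log2 fold change was −1.58 ± 0.29 and at 7 d −2.69 ± 0.25 (edgeR adjusted p = 0.00016 and 7.10e-08), and the steps from 6 h to 24 h and from 24 h to 7 d passed as well (−1.33 ± 0.34 and −1.11 ± 0.27; 0.00436 and 0.0027). Without 6 h replicate 1 the first of these steps was −1.07 and lost its call (edgeR adjusted p = 0.0667). Wherever 1 of 2 libraries is left out, here and below, the lone library is assumed to vary like those of the other groups, and the test has less power.

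Smad2 and its partner Smad4 both rose in early culture. Smad2 was at 68.7, 85.4, 70.1, 71.3 and 71.6 CPM ex vivo and at 141 and 143 CPM after 6 h. Smad4 was at 70.4, 81.3, 61.8, 76.2 and 85.0 CPM ex vivo and at 158 and 150 CPM after 6 h. Both 6 h libraries stood well above every ex vivo library for either gene. The log2 fold changes were 0.95 ± 0.15 for Smad2 and 1.04 ± 0.17 for Smad4 (edgeR adjusted p = 3.23e-05 and 3.98e-05).

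After 24 h both were still raised, Smad2 at 96.3, 102 and 99.4 CPM (0.44 ± 0.14, edgeR adjusted p = 0.0107) and Smad4 at 117, 113 and 116 CPM (0.62 ± 0.15, 0.00198). At 7 d their libraries overlapped with ex vivo: Smad2 ranged from 66.0 to 99.9 CPM and Smad4 from 56.0 to 88.6 CPM, and replicates 2 and 3 were the lowest 2 of 5 for both genes, as they were for Smad3 and Skil. Neither passed the test at 7 d (0.18 ± 0.12 and −0.02 ± 0.13; edgeR adjusted p = 0.186 and 0.919). Without those 2 libraries Smad2 was called higher, by 0.37 (edgeR adjusted p = 0.00263).

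Smad3, the other receptor-regulated Smad, fell where Smad2 rose. Its level was 284, 238, 228, 326 and 305 CPM ex vivo, 192 and 176 CPM after 6 h, 63.0, 77.9 and 62.0 CPM after 24 h, and 73.2, 58.1, 59.4, 80.8 and 76.6 CPM after 7 d. No cultured library reached the lowest ex vivo one, and those of 24 h and 7 d overlapped. The log2 fold change was −0.58 ± 0.17 at 6 h, −2.03 ± 0.16 at 24 h and −1.99 ± 0.13 at 7 d (edgeR adjusted p = 0.00718, 1.13e-08 and 1.11e-09). Without 6 h replicate 2 the 6 h fall was at −0.49 and lost its call (edgeR adjusted p = 0.0979).

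Of the inhibitors, Smad7 was not called at 6 h and fell later. It was at 273, 154, 174, 217 and 190 CPM ex vivo, at 272 and 267 CPM after 6 h, at 78.3, 69.0 and 73.7 CPM after 24 h, and at 52.4, 54.7, 60.8, 38.1 and 40.3 CPM after 7 d. The 6 h value of 0.42 ± 0.20 missed the threshold (edgeR adjusted p = 0.0663), and passed it with DESeq2 (0.49, 0.0307) and without ex vivo replicate 1 (0.58, 0.0077). On the authors' TPM, Smad7 was at 89.8 to 90.1 at 6 h, within the ex vivo range of 68.9 to 111.6, so a rise at 6 h depended on the scaling. The falls of 24 h and 7 d were 1.45 ± 0.18 and 2.03 ± 0.16 on the log2 scale (log2 fold changes of −1.45 and −2.03; edgeR adjusted p = 3.15e-06 and 6.79e-09).

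Skil peaked at 6 h. It was at 496, 620, 454, 502 and 383 CPM ex vivo, 1226 and 891 CPM after 6 h, 551, 422 and 484 CPM after 24 h and 452, 215, 235, 292 and 321 CPM after 7 d. The 6 h libraries were above all others, while those of 24 h lay within the ex vivo range. Skil rose 2.16-fold at 6 h (log2 fold change 1.11 ± 0.23, edgeR adjusted p = 0.000465), was at −0.02 ± 0.21 at 24 h (0.954) and was lower at 7 d by a log2 fold change of −0.70 ± 0.19 (0.00305).

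Pmepa1 fell at every step up to 24 h. The ex vivo libraries were at 532, 547, 602, 578 and 646 CPM, those of 6 h at 245 and 219 CPM, those of 24 h at 91.1, 60.4 and 67.0 CPM, and those of 7 d at 136, 46.7, 54.8, 46.2 and 61.6 CPM. Replicate 1 of 7 d stood above the other 4, and all cultured libraries without TGFβ lay below all ex vivo ones. The log2 fold change was −1.32 ± 0.34 at 6 h, −3.00 ± 0.32 at 24 h and −3.07 ± 0.26 at 7 d (edgeR adjusted p = 0.00278, 4.91e-07 and 2.71e-08).

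Counted over the 10 genes, 4 were higher and 3 lower at 6 h, where 68% of 13840 genes were called (31.2% higher and 36.8% lower). At 24 h 3 were higher and 6 lower (62.8% of genes called, 29.6% higher and 33.1% lower), and at 7 d 1 was higher and 7 lower (70.5%, with 34.8% higher and 35.7% lower). On TPM 3809 genes were higher and 5366 lower at 7 d, against 4821 and 4943 on the TMM scale, and 0 and 7 of the 10. The median log2 fold change of the 10 was 0.21 at 6 h, −1.01 at 24 h and −0.52 at 7 d, against −0.17, −0.06 and −0.02 over all genes. Libraries that did not overlap with ex vivo were found for 71.2% of genes at 6 h, 59.7% at 24 h and 52.2% at 7 d. These comparisons share the 5 ex vivo libraries. Between culture times, 9 of the 10 were lower at 24 h than at 6 h (41.8% of genes called, 22% higher and 19.8% lower; libraries of 71.8% did not overlap), and Smad4, at −0.42 ± 0.19, was not called (edgeR adjusted p = 0.0905). Without 6 h replicate 1, 5 of the 10 and 3615 in place of 5779 genes were called. On TPM 6 of the 10 were lower, with 4330 genes higher and 1475 lower against 3045 and 2734 on the TMM scale. From 24 h to 7 d 1 was higher, Tgfbr2, and 5 were lower (48.8% of genes called, 27.2% higher and 21.6% lower; libraries of 52.5% did not overlap). There TPM gave 2657 genes higher and 3851 lower, against 3769 and 2985, and 1 and 6 of the 10.

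**Figure D2:**
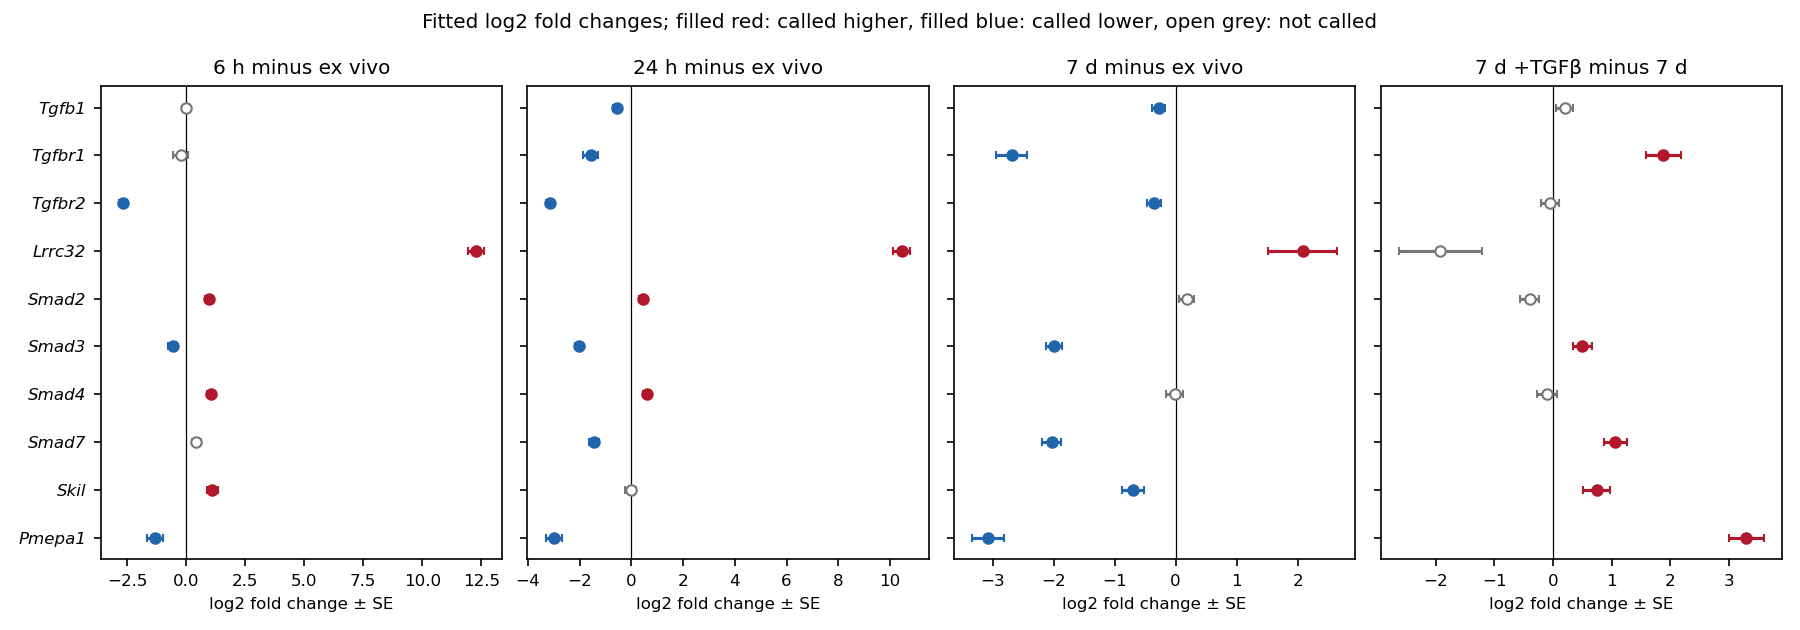
Fitted log2 fold changes with standard errors for the 10 genes at 6 h, 24 h and 7 d against ex vivo and for 7 d with TGFβ against 7 d. Filled points passed the threshold; the first 3 panels share the ex vivo libraries and the last 2 panels share the 7 d libraries. Pmepa1 is at −3.07 in the third panel and 3.30 in the fourth, and Tgfbr1 at −2.69 and 1.89.

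TGFβ in the medium raised 5 of the 10 genes above the 7 d cultures without it: the receptor kinase Tgfbr1, Smad3, and the 3 inhibitors Smad7, Skil and Pmepa1. None was lower. Of 13840 genes, 16.1% were called in this comparison (9.57% higher and 6.52% lower). On TPM 942 genes were higher and 1547 lower, against 1325 and 902 on the TMM scale, and 3 of the 10 were higher.

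Pmepa1 had the largest change. It was at 628 and 734 CPM with TGFβ, and at 136, 46.7, 54.8, 46.2 and 61.6 CPM without it. Both treated libraries were far above all 5 others and near the ex vivo range of 532 to 646 CPM. The log2 fold change was 3.30 ± 0.30 against 7 d (edgeR adjusted p = 8.14e-07) and 0.23 ± 0.32 against ex vivo (0.553), with a negative value against ex vivo on TPM (−0.13).

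Tgfbr1 was at 1704 and 1491 CPM with TGFβ and at 292 to 659 CPM without it. The treated libraries lay between the 7 d and the ex vivo libraries without touching either. Its log2 fold change was 1.89 ± 0.29 against 7 d (edgeR adjusted p = 0.000216) and −0.80 ± 0.33 against ex vivo (0.0465). The second value was −0.89 and −0.68 without TGFβ replicate 1 or 2 and lost its call (adjusted p = 0.12 and 0.234), as it did without ex vivo replicate 1, 2 or 3 (0.0509, 0.0946 and 0.0538).

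Smad7 was at 101 and 106 CPM with TGFβ and at 38.1 to 60.8 CPM without it. It was 2.10-fold higher than at 7 d (log2 fold change 1.07 ± 0.19, edgeR adjusted p = 0.00082) and still lower than ex vivo (−0.96 ± 0.21, 0.00105). Smad3 reached 90.4 and 107 CPM against 58.1 to 80.8 CPM (0.50 ± 0.17, 0.0477), and Skil 513 and 503 CPM against 215 to 452 CPM (0.74 ± 0.24, 0.0395). For both genes the groups did not overlap, as for 34% of all genes in this comparison. Leaving out a single 7 d library was enough to end either call. Skil lost it without 7 d replicate 2, 3, 4 or 5 (edgeR adjusted p = 0.0646, 0.0756, 0.0694 and 0.0501). Smad3 lost it without 7 d replicate 1, 2 or 3 (edgeR adjusted p = 0.0586, 0.081 and 0.0891). Without both 7 d replicates 2 and 3 the log2 fold change was 0.36 for Smad3 and 0.52 for Skil, and neither was called (edgeR adjusted p = 0.142 and 0.0962). Without TGFβ replicate 1 or 2, Skil stayed at 0.74 and 0.78 and Smad3 was at 0.63 and 0.40, and with 1 treated library neither passed the test (edgeR adjusted p = 0.176 and 0.154 for Skil, 0.0927 and 0.355 for Smad3), so that 3 of the 10 were called.

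The remaining 5 genes did not pass the test against 7 d. Tgfbr2 was at 835 and 667 CPM with TGFβ, within the 7 d range of 656 to 953 CPM (−0.05 ± 0.15, edgeR adjusted p = 0.884). Tgfb1, the ligand itself, was at 0.20 ± 0.14, Smad4 at −0.10 ± 0.18 and Smad2 at −0.39 ± 0.16 (edgeR adjusted p = 0.393, 0.77 and 0.111). Smad2 was called lower once 7 d replicate 2, 3 or both were left out (edgeR adjusted p = 0.0451, 0.0492 and 0.00278). Border macrophage markers, mainly Mrc1, summed to 46.6 to 94.2 CPM at 7 d and to 6.28 and 6.40 CPM with TGFβ, and oligodendrocyte precursor markers, nearly all Cspg4, to 0.91 to 20.2 CPM and 124 to 351 CPM; their part in these changes was not tested.

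Against ex vivo, the cultures with TGFβ had none of the 10 genes higher and 4 lower (Tgfbr1, Tgfbr2, Smad3 and Smad7), with 55.8% of genes called (28.3% higher and 27.5% lower; libraries of 59.7% did not overlap). Smad3 had the largest of these changes, at −1.48 ± 0.18 (edgeR adjusted p = 4.97e-06). That of Tgfbr2 was −0.40 ± 0.16 (edgeR adjusted p = 0.0395), and it lost its call without ex vivo replicate 4 or 5 (0.0599 and 0.0545) or TGFβ replicate 2 (−0.23, 0.375). Without that last library 2 of the 10 were called, and on TPM 7 were lower, with Tgfb1, Smad2 and Smad4 added; over all genes TPM gave 2533 higher and 5197 lower, against 3920 and 3801.

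Other parts of the pathway were followed in lists that leave out these 10 genes, and the text names up to 3 called genes of each list with the largest changes. The counts of all lists below stand beside 68% of all genes called at 6 h, 62.8% at 24 h and 70.5% at 7 d. For TGFβ against 7 d that share was 16.1%. Of the 9 other receptors of the family, 3 were higher and 4 lower at 6 h, 0 and 4 at 24 h, and 1 and 7 at 7 d, with list medians of 0.19, −0.96 and −0.88 beside −0.17, −0.06 and −0.02 over all genes. On TPM, 1 was higher and 4 lower at 6 h with a median of −0.46, so the sign of that median depended on the scaling. Eng (endoglin, a co-receptor) fell from 308 ± 58.2 CPM ex vivo to 58.7 ± 0.91 at 6 h and 33.7 ± 6.05 at 24 h and was at 116 ± 7.69 at 7 d (edgeR adjusted p = 8.94e-09, 7.48e-11 and 4.26e-08). Acvr2b, an activin receptor, fell from 162 ± 36.9 to 11.6 ± 2.84 CPM at 6 h and 15.5 ± 2.98 at 7 d (6.35e-09 and 1.57e-10). With TGFβ it was at 31.0 ± 9.99 CPM, above 7 d (edgeR adjusted p = 0.00479), and that call was lost without TGFβ replicate 1 (log2 fold change 0.64 in place of 1.00, 0.181).

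Among ligands and latency genes, 12 of 15 were tested in culture, and 3 were higher and 2 lower at 6 h, 2 and 4 at 24 h, and 3 and 2 at 7 d (medians 0.09, −0.66 and −0.15). Furin, the protease that cleaves the TGFβ precursor, rose from 181 ± 27.4 CPM to 837 ± 17.6 at 6 h (edgeR adjusted p = 7.43e-09). Gdf15, a distant family member and stress-induced cytokine, went from 0.343 ± 0.275 CPM to 124 ± 36.9 at 6 h, 68.6 ± 17.7 at 24 h and 32.6 ± 10.9 at 7 d (1.47e-10, 3.43e-10 and 9.98e-10). With TGFβ 3 were higher and 2 lower than at 7 d. Gdf15 fell to 1.58 ± 0.48 CPM (edgeR adjusted p = 1.28e-05), Nrros fell from 313 ± 47.8 to 109 ± 18.9 CPM (3.51e-05), and Mmp14, a membrane protease that can activate latent TGFβ, rose from 65.3 ± 15.9 to 152 ± 0.90 CPM (0.00394).

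For the other Smads and signal partners, 9 of 10 were tested, and 3 were higher and 4 lower at 6 h, 2 and 5 at 24 h, and 1 and 7 at 7 d (medians 0.03, −0.45 and −0.54; the first was −0.33 on TPM). Smad1 and Smad5, which serve the BMP branch, were both called lower at a culture time. Smad1 fell from 84.0 ± 6.47 CPM ex vivo to 45.5 ± 1.76 at 24 h (edgeR adjusted p = 4.52e-06), and Smad5 from 118 ± 23 to 55.5 ± 8.14 at 7 d (1.98e-06). With TGFβ 0 were higher and 1 was lower than at 7 d, Smad1 at 40.4 ± 2.97 against 58.0 ± 7.78 CPM (0.0113), a call lost in the fit of the 2 groups alone (0.0851) and without either TGFβ library (0.167 and 0.0722, with log2 fold changes of −0.44 and −0.58 beside −0.52).

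Of 13 further inhibitors, 6 were higher and 4 lower at 6 h, 4 and 5 at 24 h, and 6 and 4 at 7 d (medians 0.15, 0.00 and 0.22). Tgif1, a corepressor of Smad2, rose from 57.5 ± 4.92 to 349 ± 26.8 CPM at 6 h (edgeR adjusted p = 1.40e-11). Ski, the paralogue of Skil, fell from 895 ± 121 to 203 ± 8.96 CPM at 24 h (3.18e-07) and 280 ± 87.7 at 7 d (4.12e-07), where Skil was at 486 ± 64.5 and 303 ± 93.7 CPM. With TGFβ 4 were higher and 1 lower than at 7 d (3 and 3 on TPM): Smurf1, a ubiquitin ligase that acts with Smad7, rose from 82.5 ± 19.7 to 184 ± 3.11 CPM (0.000234) and Wwp1, another ubiquitin ligase, fell from 217 ± 47.6 to 71.7 ± 15.8 CPM (0.000267).

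Most general TGFβ targets were higher in culture. Of 9 tested, 7 were higher and 1 lower at 6 h, 7 and 2 at 24 h, and 6 and 3 at 7 d (medians 4.08, 3.71 and 1.63). Cdkn1a, the cell cycle inhibitor p21, which p53 and other stress signals also induce, rose from 22.1 ± 12.5 to 1334 ± 67.1 CPM at 6 h (edgeR adjusted p = 1.52e-09). Id3, also a target of the BMP branch, went from 0.267 ± 0.289 to 14.7 ± 3.42 CPM (3.26e-06). With TGFβ 3 were higher and 2 lower than at 7 d. Klf10 and Cdkn1a, singled out after their values were seen, were the lower ones (edgeR adjusted p = 0.0319 and 0.038). Tgfbi, an extracellular matrix protein, was at 392 ± 240 against 7.88 ± 4.52 CPM (edgeR adjusted p = 2.09e-06) and Ldlrad4, which like Pmepa1 binds Smads, at 76.6 ± 12.4 against 24.3 ± 7.64 CPM (5.94e-05).

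The 16 microglial genes known to depend on TGFβ were all lower at 6 h and at 24 h, with medians of −4.02 and −5.85. At 7 d 14 were lower and 1 higher (median −3.51), and with TGFβ 11 were higher and 1 lower than at 7 d (median 1.73). Gas6, a ligand of the receptor kinase Mertk, was in each case the 1 gene of the opposite direction, at 214 ± 37.2 CPM ex vivo, 1041 ± 28.9 at 7 d and 287 ± 113 with TGFβ (edgeR adjusted p = 3.42e-09 and 2.86e-05); it was singled out after its values were seen. Tmem119, a microglial surface marker, was at 2814 ± 397 CPM ex vivo, 16.7 ± 6.61 at 7 d and 783 ± 5.91 with TGFβ (edgeR adjusted p = 1.81e-11 for 7 d against ex vivo and 9.93e-09 for TGFβ against 7 d). Siglech, a lectin of the Siglec family, was at 1332 ± 112, 1.26 ± 0.68 and 55.3 ± 9.63 CPM (edgeR adjusted p = 8.06e-12 and 6.19e-08). The 7 d cultures without TGFβ had 12 of the 16 higher than at 24 h and none lower, where 27.2% of all genes were higher and 21.6% lower.

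**Figure D3:**
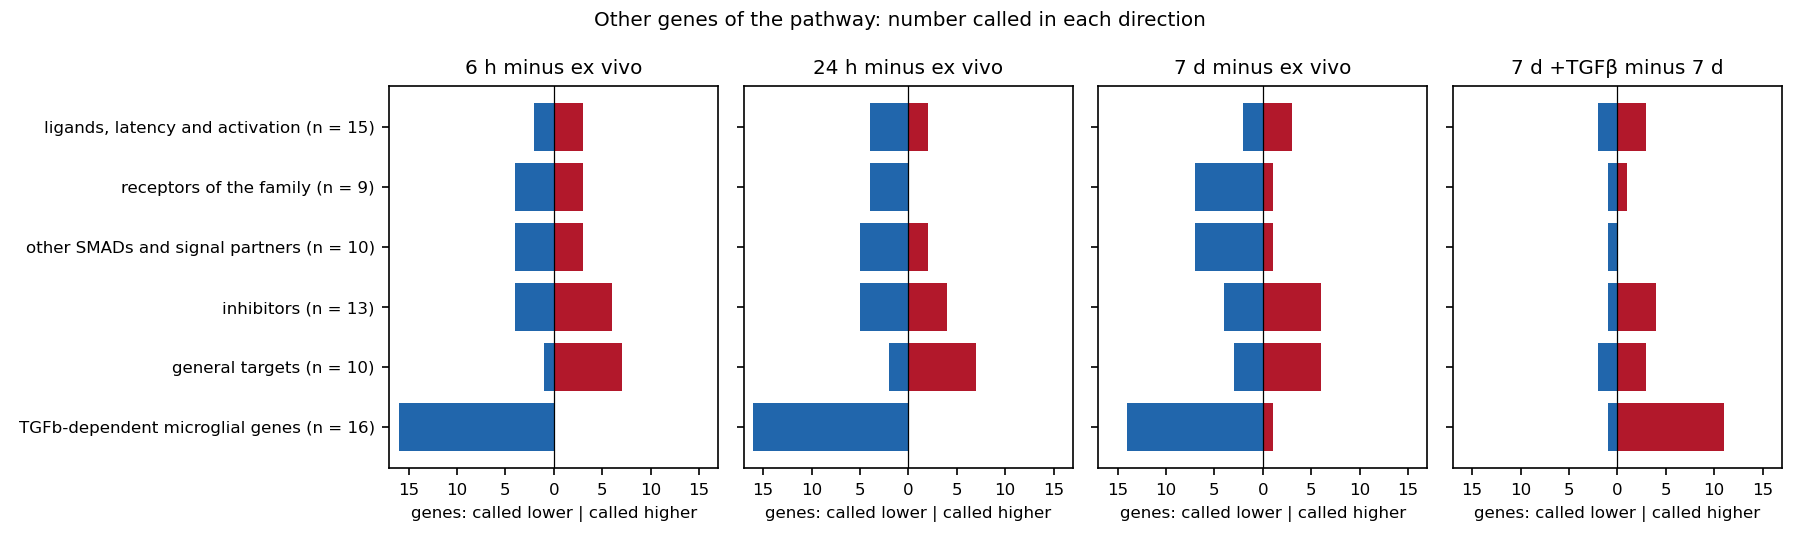
Number of genes of each list called lower (blue, to the left) or higher (red, to the right) at 6 h, 24 h and 7 d against ex vivo and for 7 d with TGFβ against 7 d. The microglial TGFβ-dependent list has 16 lower genes at 6 h and 24 h, 14 at 7 d, and 11 higher with TGFβ. Over all genes, 68%, 62.8%, 70.5% and 16.1% were called in these comparisons.

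Across the 17 microglial libraries, which share groups and scaling, the 10 genes fell into a few patterns. Tgfbr2 and Lrrc32 were opposed (Pearson r = −0.96 on log2 CPM), Smad2 and Smad4 went together (0.93), and Tgfbr1 ran with Smad7 (0.88), Pmepa1 (0.87) and Smad3 (0.84). Tgfbr1 and Tgfbr2 were unrelated by this measure (0.03). Of 8296 genes with at least 10 CPM on average, the ones most like Tgfbr2 were Plxdc2 (0.985) and Tln2 (0.981), and those most like Lrrc32 were Dcstamp (0.982) and Gpr132 (0.981). Smad3 was closest to Il10ra (0.988) and Nfatc1 (0.985), Pmepa1 to Spint1 (0.975) and Spsb1 (0.973), and Tgfbr1 to Bach2 (0.954) and Soga1 (0.952). For Smad2 they were Fam175b (0.972) and Ncoa6 (0.97), for Smad4 Pdpk1 (0.977) and Ccnt1 (0.975), for Smad7 Herpud1 (0.967) and Cd82 (0.959), for Skil Pde4dip (0.954) and Cflar (0.937), and for Tgfb1 Rhbdf1 (0.912) and Epn1 (0.903).

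Around the 10 genes (each gene body extended by 20 kb), accessible chromatin was similar in amount ex vivo and at 7 d. All 10 windows held ATAC intervals in both conditions, as did 83.5% of protein-coding genes ex vivo and 86.6% at 7 d. There were 134 intervals ex vivo and 145 at 7 d, with 12 and 14 around Tgfbr1, 27 and 29 around Tgfbr2, 14 and 16 around Smad3, 12 and 12 around Smad7, and 16 and 16 around Pmepa1. Of the ex vivo intervals 71.6% overlapped a 7 d interval by at least 1 base, against 75% over all 90674 ex vivo intervals, and in reverse 66.2%, against 60.2% of 112977. Some of these intervals may belong to neighbouring genes, 5 of which reach into the window of Tgfb1. The lists were called on pooled libraries, so they carry no replicate error and no test is given; the ATAC lists rest on 23816068 tags ex vivo and 15223392 tags at 7 d.

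H3K27ac around these genes covered less DNA at 7 d than ex vivo. It covered 279.9 kb of the 10 windows ex vivo and 122.9 kb at 7 d, a ratio of 0.439, against 0.83 for the whole lists (61.3 and 50.9 Mb). The 13254 protein-coding genes with H3K27ac ex vivo in the same kind of window had a median of 4.4 kb ex vivo. Most of the 10 genes had more. The median ratio of these protein-coding genes, which were not matched to the 10 by length covered, was 0.754. Pmepa1 went from 44.1 to 8.2 kb (0.186; 6.44% of those genes had a lower ratio), Tgfbr1 from 36.2 to 9.5 kb (0.261; 8.34%), Skil from 25.8 to 11.6 kb, Tgfbr2 from 73.1 to 37.8 kb, Smad3 from 39.3 to 21.0 kb, Tgfb1 from 27.1 to 14.8 kb and Smad7 from 29.3 to 17 kb. Smad2 had 2.6 and 2.2 kb and Smad4 2.3 and 0.8 kb. The H3K27ac lists rest on 45586997 tags ex vivo and 27568358 tags at 7 d, with 64.04% and 32.13% of tags inside intervals, so tag number, enrichment and culture cannot be told apart here.

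The longest H3K27ac interval of Pmepa1 ran over 31.5 kb ex vivo (chr2:173246127-173277662, in the gene body and past its upper end) and held 4 separate H3K27ac intervals at 7 d that covered 6.2 kb of it. It also held 9 ATAC intervals ex vivo and 7 at 7 d, and 7 of PU.1. The longest interval of Tgfbr1 was 24.6 kb (chr4:47348526-47373147), over the outer start and the first part of the gene, of which 2 intervals covered 5.9 kb at 7 d. That of Tgfbr2 was 21.2 kb (chr9:116158866-116180086), with 5 intervals and 13 kb at 7 d. Of the 64 intervals of 7 d in the windows, 58 (90.6%) lay on ex vivo intervals, against 57.5% over the whole list, and 34 of 56 ex vivo intervals (60.7%) overlapped one of 7 d, against 67.8%. Ex vivo H3K27ac covered from 0% (Lrrc32) to 57.3% (Tgfbr2) of a window, and a wide block can hold several intervals. The part of this coverage in the overlap was not tested.

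Lrrc32 had no H3K27ac interval in its window in either condition, where 66.7% of 19864 protein-coding genes had one ex vivo and 71% at 7 d. It had 3 ATAC intervals ex vivo and 3 at 7 d, each overlapping its counterpart, 1 of them in the gene body (chr7:98489812-98490012) under its single H3K4me2 interval (chr7:98489357-98490555). The gene's RNA was under 0.3 CPM in both of these conditions, and the chromatin lists do not include 6 h or 24 h. PU.1 had 4 intervals in the flanks of Lrrc32 and none in its body. H3K4me2 and PU.1 intervals were found in all 10 windows, against 81.1% and 81.7% of protein-coding genes.

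PU.1 intervals numbered 138 around the 10 genes ex vivo, the most around Smad3 (30), Tgfbr2 (23), Pmepa1 (17) and Tgfbr1 (16), and the fewest around Smad2 (5) and Lrrc32 (4). Per 100 kb, Skil had 20.6, Smad3 19.8, Pmepa1 18.4 and Tgfbr2 18, against a median of 5.61 over protein-coding genes, and Smad2 had 4.52. Of the 138, 62.3% lay on H3K27ac ex vivo, against 41.5% of all PU.1 intervals, and 52.2% on ATAC ex vivo, against 60%. The part of the wide H3K27ac coverage of these windows in the share on H3K27ac was not tested. None of the 5 start windows printed above held a PU.1 interval (22.7% of all promoters did). The windows before the 4 outer starts each overlapped an ATAC interval in both conditions (35.7% of promoters ex vivo and 36.4% at 7 d). They also overlapped H3K27ac in both (35.4% and 32.2%) and H3K4me2 ex vivo (45.5%).

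**Figure D4:**
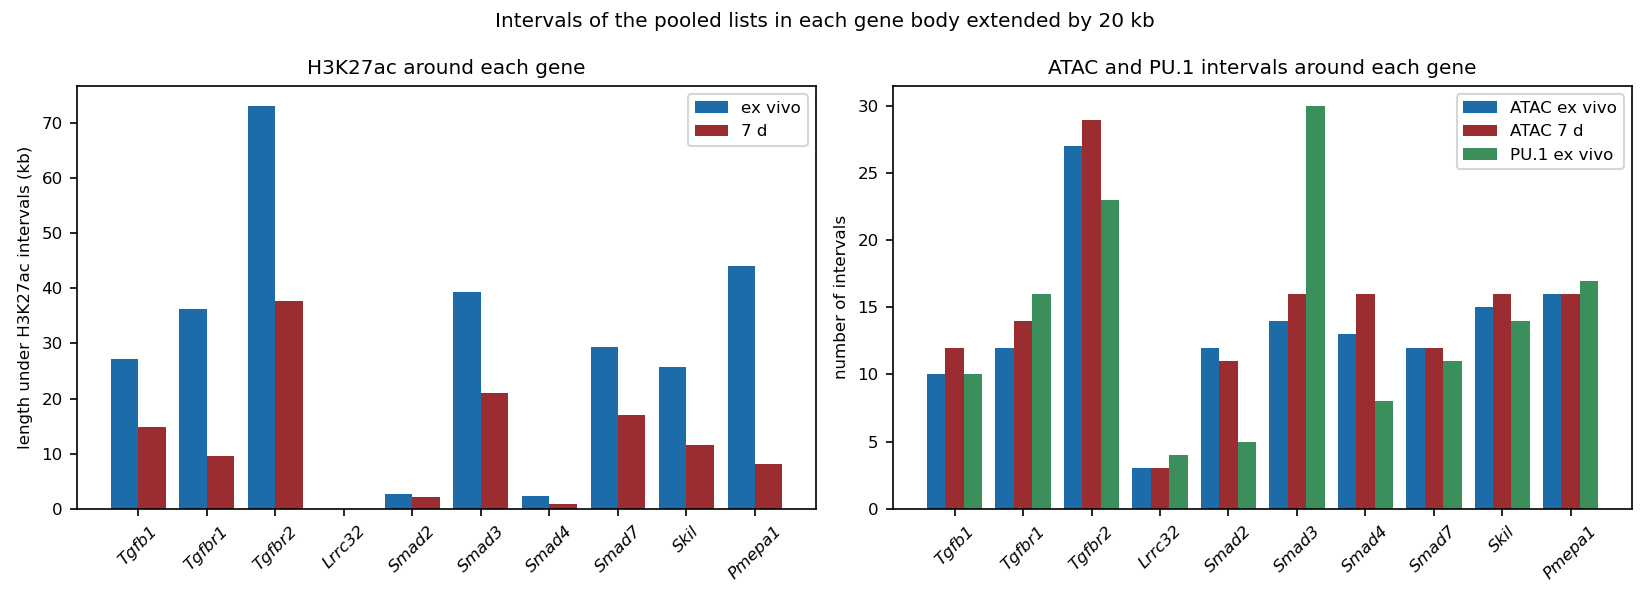
Left, total length under H3K27ac intervals around each gene ex vivo and at 7 d, in kb; right, number of ATAC intervals ex vivo and at 7 d and of PU.1 intervals ex vivo. Bars are single values from pooled lists without error; the H3K27ac length is lower at 7 d for the 9 genes that have any (Pmepa1 44.1 and 8.2 kb), while ATAC counts are alike (16 and 16 for Pmepa1).

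**Figure D5:**
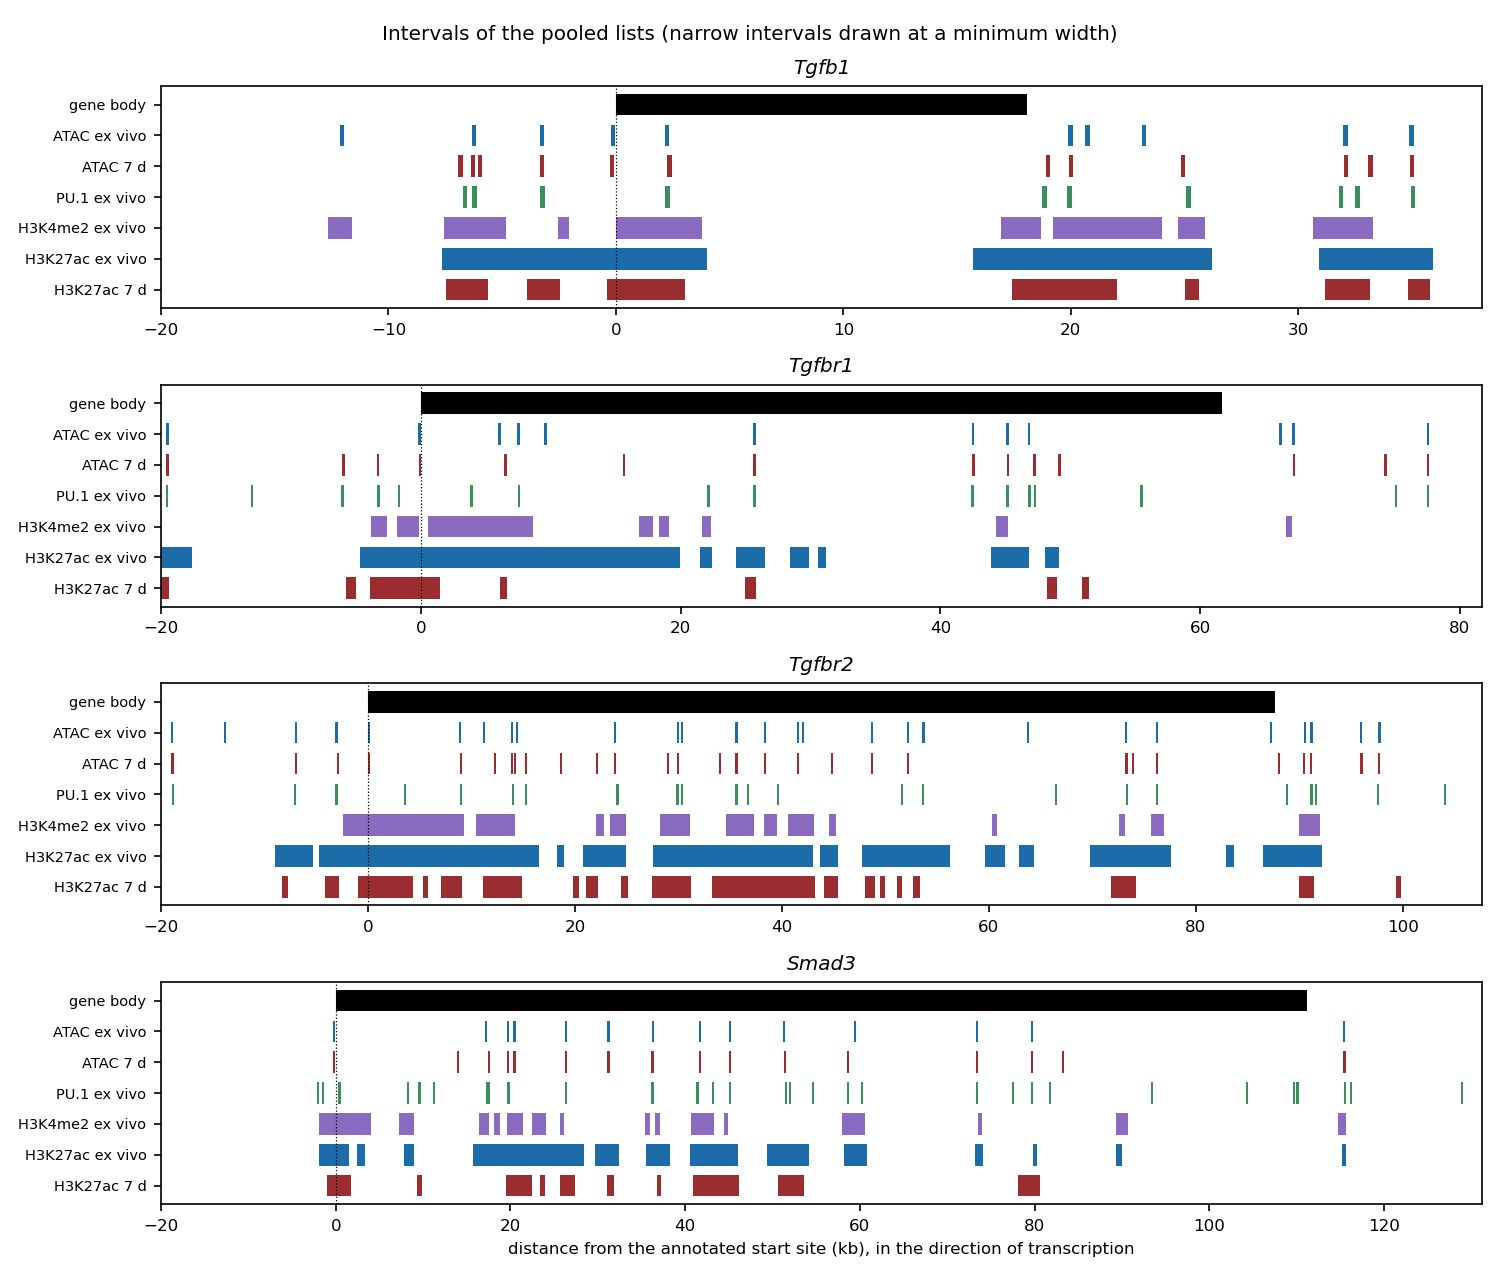
Intervals around Tgfb1, Tgfbr1, Tgfbr2 and Smad3, drawn by distance in kb from the annotated start (dotted line) in the direction of transcription, with the gene body in black. H3K27ac ex vivo forms wide blocks over the start of Tgfb1, Tgfbr1 and Tgfbr2 (11.6, 24.6 and 21.2 kb) that are shorter and broken at 7 d, while ATAC intervals remain at each start.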

How the data were processed

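The submitters' processing notes list HOMER, limma, STAR, Bowtie2, bedtools and R 3.3.1, and the builds mm10 and hg38. The authors deposited raw read counts per gene symbol and TPM (568934 to 644847 in sum per library, so not all transcripts are in the table), and HOMER interval lists that the file headers give as called on pooled libraries. No source states the strand of counting, and Gm32435, Gm31292, Gm51710 and Gm41776 overlap Tgfbr1, Tgfbr2, Smad3 and Smad7.

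Here, the counts were tested with edgeR 4.0.16 (TMM, filterByExpr, robust quasi-likelihood test, Benjamini-Hochberg adjusted p under 0.05 over all genes tested) in 1 model of the 17 microglial libraries and another of the 9 ex vivo and lysate libraries. The standard error is the log2 fold change over the square root of F; marker sums use CPM of total counts. DESeq2 1.42.0 and limma 3.58.1 on log2(TPM + 1 or 0.1) were alternatives, with others in the closing section. The tests were checked on simulated counts in which few genes changed, equally often up and down. That check cannot speak to the shifts in scaling described above, where many genes changed. Replicates differed beyond sampling noise and none was merged. Their spread was uneven. Chi-square per degree of freedom, lower for more alike libraries, was 20.6 for 7 d replicates 2 and 3. It was 24.3 to 49.3 among 7 d replicates 1, 4 and 5, and 116 to 166 across these subsets. Ex vivo replicates 2 and 3 gave 53.1, replicates 1, 4 and 5 gave 24.8 to 71.1, and crossing pairs 90.5 to 148. The tests took all libraries of a group as independent, which was not tested. Poisson intervals cover counting error only. Named list genes are up to 3 per list and comparison, called, with the largest change and an average of 10 CPM or more in the group where they were higher; likeness is Pearson r of log2 CPM with a prior count of 2. Genes, lists and tests were chosen with earlier results of these data known. One called gene of the general target list is counted there but not reported here by name.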

Additional observations from a re-analysis of the deposited data

Results flagged for a closer look

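In 30 groups of 4 or 5 libraries (the 10 genes in ex vivo, 7 d and lysate), 5 held a library whose gap to its nearest neighbour exceeded Dixon's limit, where chance gives about 1 in 20. Tgfbr1 in ex vivo replicate 2 was at 4030 CPM with the next at 2590, and Smad2 in the same library at 85.4 CPM with the next at 71.6. Pmepa1 in 7 d replicate 1 was at 136 CPM with the next at 61.6. Tgfb1 in 7 d replicate 5 was at 471 CPM with the next at 417. Lrrc32 in ex vivo replicate 5 was at 0.222 CPM, from 4 counts, with the next at 0.0464 CPM, from 1 count.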

How the results depend on the processing

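Of 58 called changes of the 10 genes, 45 kept their call in every alternative, 13 lost it at least once and 0 changed sign. On TPM (pseudocount 1 and 0.1) 7 and 7 genes were called for TGFβ against ex vivo in place of 4, and 3 and 3 for TGFβ against 7 d in place of 5. Without a filter on low counts 2 were called in the first of these, and with the 2 groups alone 3 in the second. Leaving out 1 library at a time gave 2 to 3 genes for TGFβ against ex vivo, 3 to 4 for TGFβ against 7 d (1260 to 2326 of all genes, where 2227 were called) and 5 to 8 for 24 h against 6 h (3615 to 4933 of all genes); where that left 1 library in a group, it was assumed to vary like the other groups. Windows extended by 50 kb held 220 ATAC intervals at 7 d.

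The values that changed sign all belonged to uncalled changes. On TPM with a pseudocount of 1 and 0.1, the log2 fold change was −0.38 and −0.38 for Tgfb1 at 6 h, −0.064 and −0.069 for Smad2 at 7 d, −0.29 and −0.29 for Skil and −0.13 and −0.13 for Pmepa1 in TGFβ against ex vivo, and −0.14 and −0.15 for Smad3 in 7 d against 24 h; Lrrc32 was at −0.0041 in TGFβ against ex vivo with a pseudocount of 1. Without the filter Skil at 24 h was at 0.031. Without 7 d replicates 2 and 3, Smad4 at 7 d was at 0.20, Tgfbr2 in TGFβ against 7 d at 0.052 and Pmepa1 in 7 d against 24 h at 0.14. With the 2 groups alone Smad3 in 7 d against 24 h was at −0.011. Leaving out 1 library at a time, the range was −0.10 to 0.14 for Tgfb1 and −0.49 to 0.022 for Tgfbr1 at 6 h, −0.091 to 0.082 for Skil at 24 h, −0.091 to 0.069 for Smad4 at 7 d, −0.22 to 0.068 for Tgfb1, −0.24 to 1.81 for Lrrc32 and −0.027 to 0.15 for Skil in TGFβ against ex vivo, −0.21 to 0.13 for Tgfbr2 in TGFβ against 7 d, and −0.053 to 0.15 for Smad3 and −0.48 to 0.085 for Pmepa1 in 7 d against 24 h. The cause was not tested.

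With the replicate number as a block, Skil in TGFβ against ex vivo was at −0.065, Tgfbr2 in TGFβ against 7 d at 0.018 and Smad3 in 7 d against 24 h at −0.10. The block ended the calls of Tgfbr2 in TGFβ against ex vivo (edgeR adjusted p = 0.123), Skil in TGFβ against 7 d (0.0957) and Smad2 in 24 h against 6 h (0.0634). Deviations from the group mean in same-numbered libraries correlated at 0.113 to 0.375 over 2 pairs for TGFβ against 7 d. For 24 h against 6 h they did so at 0.227 to 0.235 over 2 pairs, and elsewhere not all were above 0.1. In a group of 2 the deviations mirror each other, so 2 such pairs are not independent. Pairing was therefore not settled in these 2 comparisons, and the main tests did not use the numbers as pairs. Depth limits Lrrc32 ex vivo (5 counts in 5 libraries) and with TGFβ (3 counts in 2).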
